A study of Ovis aries with 3 samples.

Results

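The sodium pump, its small FXYD regulators and the vacuolar proton pump move ions across the membranes of nearly every animal cell, and their messenger RNAs were followed here in vesicles shed by the early sheep conceptus. Members were the rows of the deposited table whose symbol begins with ATP1A or ATP1B and a digit, with FXYD and a digit, with ATP6V, or with ATP6AP1 or ATP6AP2. This gave 39 of 25197 rows, namely 8 sodium pump subunits, 6 FXYD regulators and 25 rows of the vacuolar proton pump. No member carried a numbered copy suffix.

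The samples were 3 libraries of 1 group, with no control group and no RNA of the conceptus cells themselves. Each intact sheep conceptus (the embryo with its membranes) of day 14 of pregnancy was cultured for 24 h in its own dish, in medium whose fetal bovine serum had been depleted of exosomes. Vesicles were precipitated from the filtered medium and their RNA was sequenced. The p-values below concern only the within-library difference between paired genes, over the 3 libraries. No label says which animal a library came from, so the spread of that difference between libraries may be partly technical. Values are RPKM-type, that is, reads scaled for gene length and library depth, so levels of different genes are compared per length. Detected transcripts were those whose value reached at least 1 in every one of the 3 libraries.

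The sodium pump exports sodium and imports potassium at the cost of ATP. Its alpha subunit binds the ions and splits ATP, its beta subunit is needed for folding and delivery to the cell surface, and FXYD proteins are single-pass partners that tune its ion affinity. In the trophectoderm, the outer epithelium of the blastocyst, the sodium pump is known from mouse and cattle embryos to drive the fluid that fills the cavity. The vacuolar proton pump is a rotary machine with a cytosolic V1 sector that splits ATP and a membrane V0 sector that carries protons. It acidifies endosomes, lysosomes and secretory vesicles.

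Summed values of the 3 libraries were 17480.7, 40060.3 and 9531.8, so the sum of library 2 was 4.20 times that of library 3. Depth estimated from the copies of U6 RNA differed less, being 1.28 times that of library 2 in library 1 and 1.21 times in library 3. By this estimate a gene with the length of U6 needed 2.37, 1.85 and 2.23 reads to reach a value of 1 in libraries 1, 2 and 3, and longer genes proportionally more. Values were rounded to 1 decimal, and an exact 0 means only that the gene is listed at 0. Of lists for other cell types, 2 of 8 trophectoderm, 2 of 8 extraembryonic endoderm and 3 of 14 uterine epithelium rows were detected. Of 5 leukocyte and 6 erythroid rows 0 were, beside 3.89% of all rows of the table, and lists this short give few rows at that share. In at least 1 library 3 leukocyte rows reached 1, among them AIF1 at 0.3, 2.8 and 4.1, and 0 erythroid rows did. Of all rows of the table, 82.1% stayed under 1 in all 3 libraries. The trophectoderm markers KRT8 and TP-1 (interferon tau) were present in every library, while the trophectoderm regulator GATA2 was listed at 0 in all 3.

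Of the 39 members, 6 were detected (15.4%), where 3.89% of all rows of the table and 3.95% of the rows with a gene symbol were. They were FXYD4, the proton pump subunits ATP6V1F, ATP6V1G1, ATP6V1E1 and ATP6V0D1, and the sodium pump subunit ATP1B3. A further 7 members reached 1 in 2 libraries and 3 in 1 library. The remaining 23 stayed under 1 throughout, as did 82.1% of all rows. Of all 39 members, 11 were listed at 0 in all 3 libraries, against 21.6% of all rows and 11.7% of rows with a symbol. In single libraries, 10, 15 and 10 members reached 1 in libraries 1, 2 and 3, while 9.37%, 13.6% and 7.88% of all rows did. With other rules the count was 13 for a value of 1 in at least 2 libraries (9.02% of all rows), 3 at a threshold of 2 in all 3 libraries (1.89%) and 8 at a threshold of 0.5 (7.56%). Above the 99th percentile of olfactory receptor rows, which serve as a background level, lay 4 members (2.37%). The count was 9 without library 1 (5.06%), 6 without library 2 (4.45%) and 10 without library 3 (7.29%). The members were chosen with earlier results of these data known, so these counts are a description and carry no test.

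**Figure D1:**
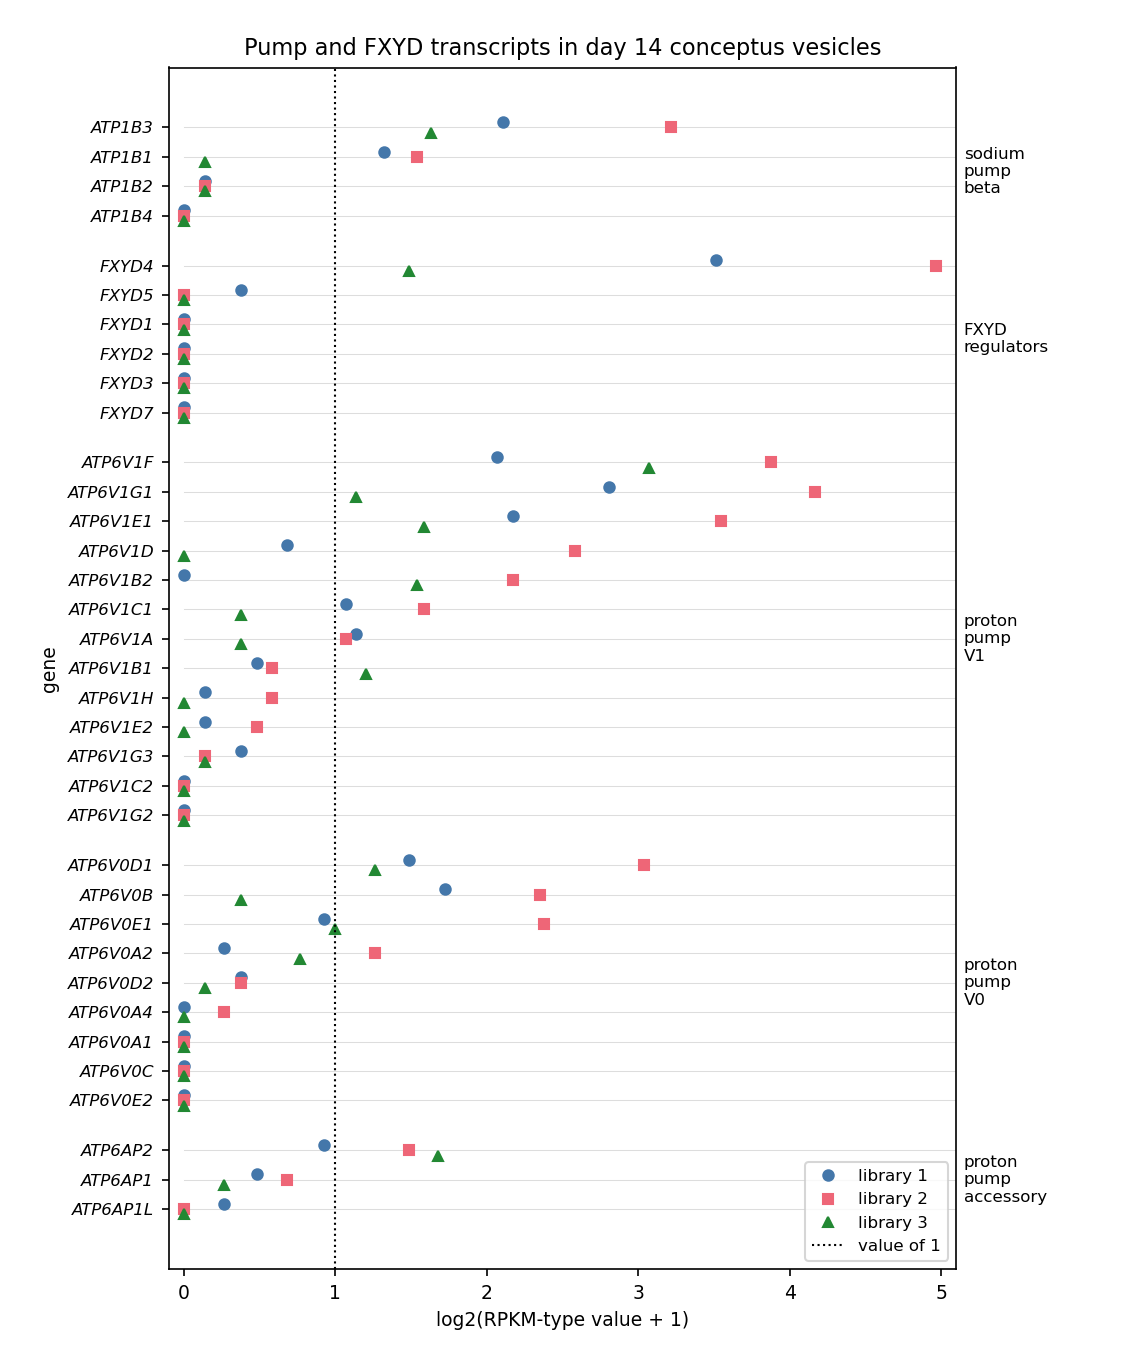
Level of 35 of the 39 genes, those of the beta subunits, FXYD regulators and proton pump, in each library, as log2(RPKM-type value + 1); each symbol is 1 library, genes run down the page by role, and the dotted line marks a value of 1. FXYD4 reaches the highest level of any gene plotted, ATP1B3 stands highest among the beta subunits, and 6 genes lie at or right of the line in all 3 libraries.

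Among the beta subunits of the sodium pump, ATP1B3 was the detected member. ATP1B3, the beta 3 subunit, stood at 3.3, 8.3 and 2.1 in libraries 1, 2 and 3 (4.57 ± 3.29, SD, n = 3). It was high in library 2 and similar in the other libraries, at ranks 567, 548 and 805 of 25197 rows. ATP1B1, the beta 1 subunit of most epithelia, stood at 1.5, 1.9 and 0.1. It was present in libraries 1 and 2 and near the floor in library 3. ATP1B2, a beta isoform of nerve and glia, was at 0.1 in each library, and ATP1B4, whose product has lost the pump role in placental mammals, was listed at 0 in all 3. ATP1A4, an isoform of sperm, was likewise listed at 0 in all 3. Values this low are close to the 1-decimal rounding, and paralogous isoforms may share reads.

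Within each library ATP1B3 exceeded ATP1B1. The difference in log2(value + 1) was 0.78, 1.68 and 1.49, a mean of 1.32 ± 0.47 (SD, n = 3). It was positive in 3 of 3 libraries (exact p = 0.25 by a two-sided sign-flip permutation test, adjusted p = 0.375 over 18 pairs of genes). ATP1B1 exceeded ATP1B2 in 2 of 3 libraries, by 0.86 ± 0.75 (SD, n = 3; exact p = 0.5, adjusted p = 0.6), and both stood at 0.1 in library 3. With 3 libraries, 0.25 is the smallest p this test can give, so none of the 18 pairs could pass 0.05.

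Among the FXYD regulators, FXYD4 stood almost alone. FXYD4, known in the rodent kidney and colon as a channel-inducing factor that raises the sodium affinity of the pump, stood at 10.4, 30.2 and 1.8 in libraries 1, 2 and 3 (14.1 ± 14.6, SD, n = 3). It was high in libraries 1 and 2 and low in library 3, at ranks 174, 165 and 965 of 25197 rows. It held 97.2%, 100% and 100% of the summed value of the class. FXYD5, a regulator also known as dysadherin that weakens cell contacts, was listed at 0.3, 0 and 0. FXYD1 (phospholemman, a regulator in heart and muscle), FXYD2 (the gamma subunit of the kidney pump), FXYD3 (a regulator of epithelia and tumours) and FXYD7 (a brain regulator) were listed at 0 in all 3 libraries. FXYD6 was not analysed here.

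In the RefSeq annotation of the ARS-UI_Ramb_v3.0 assembly, used here only for the order of genes, FXYD1, FXYD7 and FXYD5 are direct neighbours among protein-coding genes. FXYD3 lies beside them with 1 such gene between. Those 4 clustered genes gave the single value above 0 of FXYD5 in library 1. No other member lies close to FXYD4 in that order. The ratio of the FXYD4 level to the ATP1B3 level was 3.15 and 3.64 in libraries 1 and 2 and 0.857 in library 3.

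Of the 4 detected proton pump transcripts, 3 belonged to the V1 sector, which has 13 of the 25 rows of the pump. The V0 sector has 9 rows, of which 1 was detected, beside 3.89% of all rows of the table. ATP6V1F, a small subunit of the central rotor, stood at 3.2, 13.7 and 7.4 in libraries 1, 2 and 3 (8.1 ± 5.28, SD, n = 3). It was the highest member of library 3, at rank 151, and lay at ranks 595 and 342 in libraries 1 and 2. ATP6V1G1, part of the peripheral stalk that holds the motor still, stood at 6, 17 and 1.2 (8.07 ± 8.10, SD, n = 3). It was low in library 3, as FXYD4 was. ATP6V1E1, its partner in the stalk, stood at 3.5, 10.7 and 2 (5.4 ± 4.65, SD, n = 3) and was highest in library 2.

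Subunits of the catalytic head were lower. ATP6V1A, the subunit that splits ATP, stood at 1.2, 1.1 and 0.3 in libraries 1, 2 and 3 (0.867 ± 0.493, SD, n = 3). ATP6V1B2, the widely expressed B subunit beside it, was listed at 0, 3.5 and 1.9. Library 1 thus had ATP6V1A at 1.2 with ATP6V1B2 listed at 0, and library 3 more ATP6V1B2 than ATP6V1A. The difference in log2(value + 1), ATP6V1B2 minus ATP6V1A, was 0.37 ± 1.31 (SD, n = 3) and positive in 2 of 3 libraries (exact p = 0.75 by a sign-flip permutation test, adjusted p = 0.794). ATP6V1B1, the B isoform of acid-secreting kidney cells, stood at 0.4, 0.5 and 1.3. It lay above ATP6V1B2 in library 1 and below it in libraries 2 and 3.

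The other V1 subunits varied between libraries. ATP6V1D, part of the rotor shaft, was listed at 0.6, 5 and 0, which left it present in library 2 alone at a value of 1. ATP6V1C1, a subunit involved in the reversible assembly of the pump, stood at 1.1, 2 and 0.3. ATP6V1H, a regulator that silences detached V1, was listed at 0.1, 0.5 and 0.

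In the V0 sector, ATP6V0D1, which links rotor and membrane ring, was the detected member. It stood at 1.8, 7.2 and 1.4 in libraries 1, 2 and 3 (3.47 ± 3.24, SD, n = 3) and was highest in library 2. ATP6V0E1, a small membrane subunit, was just short of detection at 0.9, 4.2 and 1, and ATP6V0B, a proteolipid of the ring, stood at 2.3, 4.1 and 0.3. ATP6V0C, the main proteolipid of the proton-carrying ring and needed by every known vacuolar pump, was listed at 0 in all 3 libraries. Whether the gene model behind this row is complete was not examined here, which bears on every count that holds it. The a subunit, which forms the proton path, was represented by ATP6V0A2 (0.2, 1.4 and 0.7), with ATP6V0A4 at 0, 0.2 and 0 and ATP6V0A1 at 0 in all 3. TCIRG1, the a3 isoform under its own name and not a member, was at 0, 0.1 and 0.

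Taking the highest isoform of each subunit, 7, 11 and 6 of the 13 subunits of the pump reached a value of 1 in libraries 1, 2 and 3. Of all single rows of the table, 9.37%, 13.6% and 7.88% did. Up to 3 isoform rows stand for 1 subunit, which raises its count, so these rates are not like for like. In 3 of 3 libraries 4 subunits reached 1, namely E, F and G of V1 and d of V0, beside 3.89% of all rows. Subunits D of V1 and a of V0 did so in library 2 alone, and H of V1 and c of V0 in no library. Of the accessory proteins, ATP6AP2, the prorenin receptor that also serves pump assembly, stood at 0.9, 1.8 and 2.2 (1.63 ± 0.666, SD, n = 3) and was highest in library 3. ATP6AP1, an accessory glycoprotein, stood at 0.4, 0.6 and 0.2. ATP6AP2 exceeded ATP6AP1 in 3 of 3 libraries by 0.89 ± 0.49 in log2(value + 1) (SD, n = 3; exact p = 0.25, adjusted p = 0.375). ATP6AP1L, which the symbol rule takes in and whose role is less clear, was listed at 0.2, 0 and 0.

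Isoforms of the same subunit were compared within each library. Of the 18 pairs, 13 had both genes above 0 in some library, and 8 of those 13 were isoform pairs. The pairs were chosen with earlier results of these data known, so the counts here are a description. The first-named isoform was the higher in 3 of 3 libraries in 5 of these 8. They include ATP1B3 over ATP1B1, given above, ATP6V1E1 over the testis isoform ATP6V1E2 (2.23 ± 0.76 in log2(value + 1), SD, n = 3), ATP6V1G1 over the kidney isoform ATP6V1G3 (2.49 ± 1.52) and ATP6V0D1 over the kidney and osteoclast isoform ATP6V0D2 (1.63 ± 0.89); each had an exact p of 0.25 and an adjusted p of 0.375 by the sign-flip permutation test, so none passed 0.05. In the a subunit pair, ATP6V0A1 was listed at 0 in all 3 libraries. Its kidney isoform ATP6V0A4 was above 0 only in library 2, at 0.2, close to the rounding (exact p = 1 by the same permutation test). ATP6V1C2, ATP6V1G2 and ATP6V0E2, partners in 3 other pairs, were listed at 0 in all 3 libraries, so no fold is given against them.

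Levels of proton pump transcripts were set beside the size of their proteins. The deposited descriptions state a protein size for 16 proton pump rows, from 13 to 70 kDa. Over these 16 the Spearman rho between stated size and mean value was -0.21, and it was -0.34, -0.20 and -0.0015 within libraries 1, 2 and 3. Over the 11 rows that are not tissue-restricted isoforms it was -0.57 with the mean, and -0.54, -0.56 and -0.19 within libraries 1, 2 and 3. The 346 rows outside the members whose descriptions state a size gave -0.44 with the mean. These are descriptions across genes that share the same libraries and are not independent. The kDa figure of a gene with a double size, such as 56/58, was taken as the first.

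**Figure D2:**
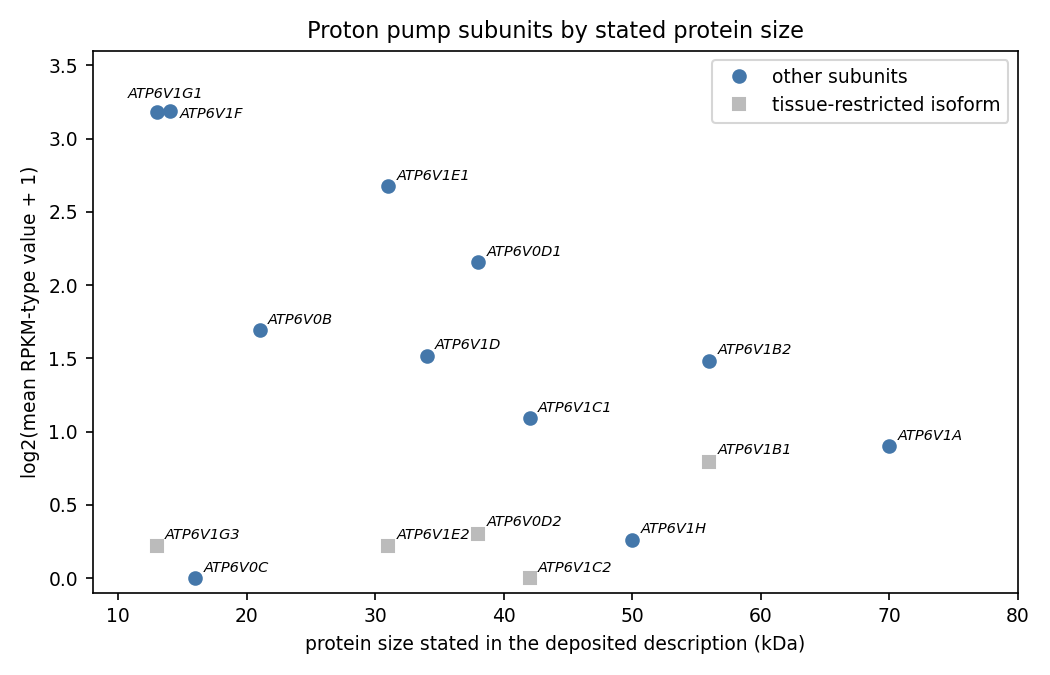
Mean RPKM-type value over the 3 libraries, as log2(mean + 1), against the protein size in kDa stated in the deposited descriptions, for the 16 proton pump rows that give one; circles are the other subunits and squares are tissue-restricted isoforms. ATP6V1G1 at 13 kDa and ATP6V1F at 14 kDa stand highest, ATP6V1A at 70 kDa is low, and ATP6V0C at 16 kDa lies at 0.

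Much of the difference between libraries was shared with the whole table. As deposited, all 6 detected members were highest in library 2, as were 75.0% of the 981 detected rows. After each library was scaled to the mean library sum, 4 of the 6 were highest in library 2 and 2 in library 3, against 27.4% and 57.8% of detected rows. ATP1B3 became the steadiest member, with scaled values of 4.22, 4.63 and 4.93 in libraries 1, 2 and 3. ATP6V1E1 followed with scaled values of 4.48, 5.97 and 4.69.

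The scaled values of FXYD4 were 13.3, 16.9 and 4.22, and those of ATP6V1G1 7.67, 9.49 and 2.81, both lowest in library 3. ATP6V1F went the other way with scaled values of 4.09, 7.65 and 17.4, and ATP6AP2 did likewise with 1.15, 1.00 and 5.16. The median SD of log2(value + 1) over the 6 detected members was 0.99, against 0.78 for all 981 detected rows, and 0.54 against 0.57 after scaling. The spread of the members after scaling thus ran from 0.09 for ATP1B3 to 0.95 for FXYD4.

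**Figure D3:**
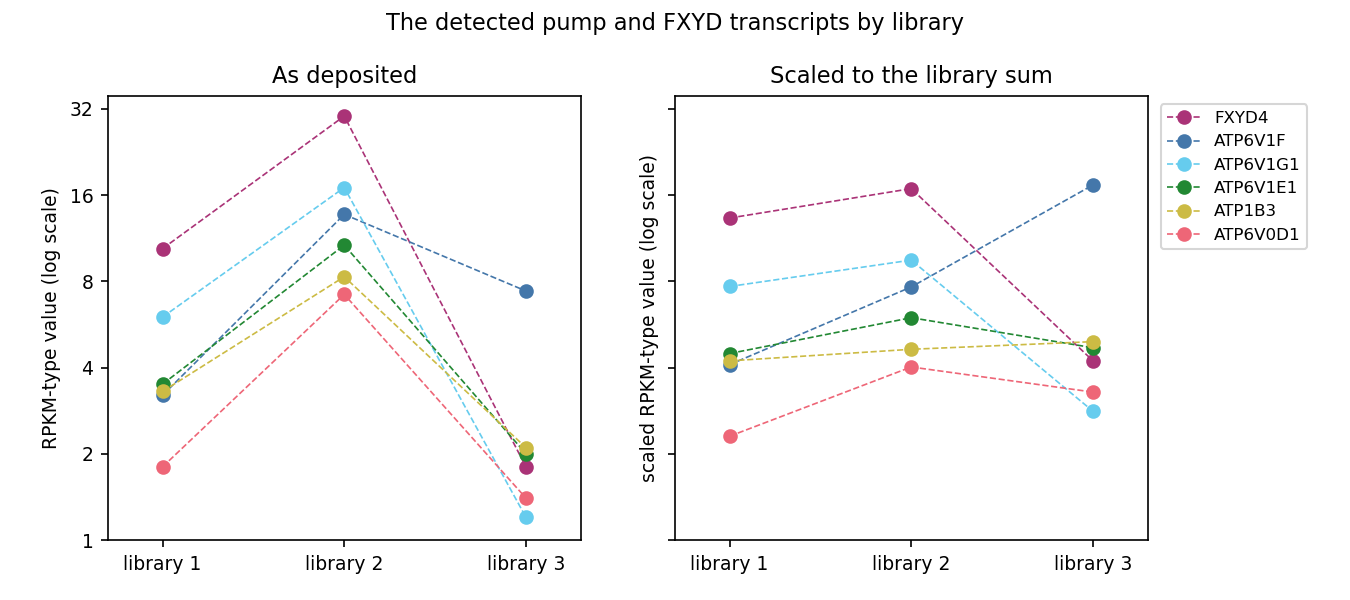
RPKM-type values of the 6 detected members in each library, as deposited (left) and scaled to the mean library sum (right), on log2 axes; each point is 1 library, and dashed lines only join points of 1 gene, since the libraries have no order. Library 2 is highest for all 6 on the left, while on the right ATP1B3 stays between 4.22 and 4.93 and FXYD4 and ATP6V1F cross in library 3.

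By share of the summed value, the proton pump was the largest of the 3 classes in each library. It held 0.134%, 0.185% and 0.214% of libraries 1, 2 and 3 (0.178 ± 0.0403%, SD, n = 3) over its 25 rows. The FXYD regulators held 0.0612%, 0.0754% and 0.0189% (0.0518 ± 0.0294%) and the sodium pump 0.0292%, 0.0265% and 0.0262% (0.0273 ± 0.00164%, both SD, n = 3). FXYD transcripts exceeded those of the sodium pump in libraries 1 and 2 and were below them in library 3. The median log2(value + 1) of the rows of a class was 0.44 ± 0.21 for the proton pump, 0 in each library for FXYD and 0.11 ± 0.04 for the sodium pump (SD, n = 3). It was 0.14 in each library over all rows.

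**Figure D4:**
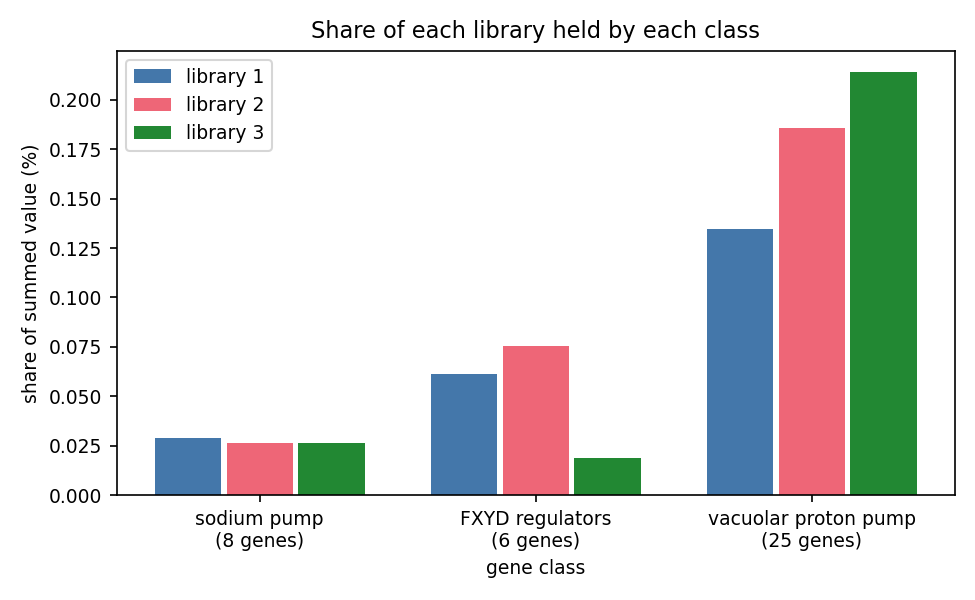
Share of the summed RPKM-type value of each library, in %, held by the 8 sodium pump rows, the 6 FXYD rows and the 25 proton pump rows; each bar is 1 library, with no error bar. The sodium pump share is nearly level, at 0.0262 to 0.0292%, the FXYD share is lowest in library 3 and the proton pump share is highest there.

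FXYD4 and the 3 detected uterine markers LGALS15, CST6 and IGFBP1 all had their lowest share in library 3. The summed uterine epithelium list, 14 rows of which none was listed at 0 in all libraries, held 0.293%, 0.354% and 0.104% of libraries 1, 2 and 3. FXYD4 was 0.203, 0.213 and 0.182 times that sum. Most of the sum came from LGALS15 and CST6, and the list did not move as one. GRP, a gastrin-releasing peptide, held 0.00229%, 0.00799% and 0.0136% and STC1, a stanniocalcin, 0.00172%, 0.000499% and 0.00525%, both highest in library 3. LGALS15, a galectin secreted by the sheep uterus, stood at 18.8, 74.2 and 4.5, and CST6, a protease inhibitor, at 24.9, 49.1 and 1.1. The ratio of FXYD4 to LGALS15 was 0.553, 0.407 and 0.4, and the ratio to CST6 was 0.418, 0.615 and 1.64. The last ratio rests on CST6 at 1.1, under the olfactory receptor percentile of 1.74 in library 3.

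The trophectoderm list had summed shares of 0.205%, 0.417% and 0.380% in libraries 1, 2 and 3 from 8 rows. KRT8 alone held 0.150%, 0.347% and 0.286%, so the sum follows this gene. GATA3 (0.9, 0.9 and 3) was highest in library 3. CDX2 (0.5, 0.2 and 0) and TEAD4 (0.3, 0 and 0) were highest in library 1, and ELF5 (1, 0.2 and 0.8) was lowest in library 2. FXYD4 was 0.290, 0.181 and 0.0497 times the sum of the list. The extraembryonic endoderm list held 0.0555%, 0.0789% and 0.132% from 8 rows, none of them at 0 in all libraries. Its 2 detected rows did not move as one. APOA1 held 0.0343%, 0.0257% and 0.0661%, highest in library 3, and DAB2 0.00629%, 0.0364% and 0.0157%, highest in library 2. SOX17 (1, 0.9 and 0) was listed at 0 in library 3. FXYD4 was 1.73, 1.78 and 1.5 times ATP6V1G1, a subunit found in all cell types. In library 3 ATP6V1G1, at 1.2, lay under the olfactory receptor percentile of 1.74, and FXYD4, at 1.8, just above it. The ratio of FXYD4 to the other detected proton pump transcripts was less steady. It was 3.25, 2.20 and 0.243 for ATP6V1F, 2.97, 2.82 and 0.9 for ATP6V1E1, and 5.78, 4.19 and 1.29 for ATP6V0D1. The part of these cell types in the FXYD4 values was not tested. In such bulk RNA, fewer vesicles from a cell type and less RNA per vesicle cannot be told apart.

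**Figure D5:**
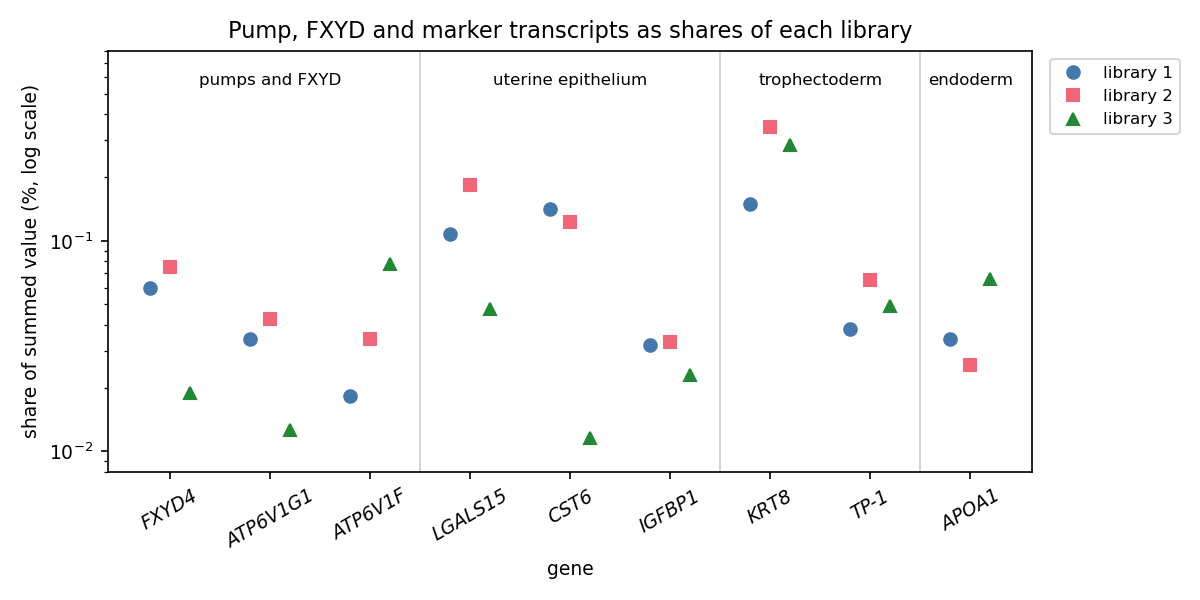
Share of the summed RPKM-type value of each library, in % on a log axis, for 3 members and for markers of uterine epithelium, trophectoderm and extraembryonic endoderm; each symbol is 1 library. FXYD4, ATP6V1G1, LGALS15, CST6 and IGFBP1 are lowest in library 3, where ATP6V1F and APOA1 are highest. Of the endoderm list only APOA1 is plotted.

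Lists of genes that work with the pumps are short, and their detected shares stand beside 3.89% for all rows, with no test of a difference. Of 14 rows for proton pump partners and assembly factors, 1 was detected (7.14%), TMEM9B, a lysosomal membrane protein, at 1.4, 9.8 and 4.6 in libraries 1, 2 and 3. RNASEK, a membrane protein bound to the pump, stood at 3.6, 6.6 and 0.8, and VMA21, its assembly chaperone, at 0.4, 1.3 and 0.2. Of 13 lysosomal and endosomal membrane rows 0 were detected. LAMTOR4 and LAMTOR1, anchors of growth signalling on the lysosome, stood at 3.4, 6.7 and 0.5 and at 1.9, 5.2 and 0, and the lysosomal glycoprotein LAMP1 at 0.9, 3.8 and 1.5.

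Of 21 sodium and water transport rows, 2 were detected (9.52%, against 3.89% of all rows). SLC9A3R1, a scaffold of apical transporters, stood at 6.7, 19.3 and 1, and SGK1, a kinase that raises sodium transport, at 5.2, 6.4 and 1.2 in libraries 1, 2 and 3. The tight junction protein CLDN4 stood at 0.8, 3.1 and 0.1. Of 14 rows for other P-type ATPases 0 were detected, and the highest were the Golgi calcium pumps ATP2C2 (1.3, 0.2 and 0.1) and ATP2C1 (0.3, 1.2 and 0) and the polyamine transporter relative ATP13A4 (0, 0.7 and 0).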

How the data were processed

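The authors deposited a single table of 25197 rows with an Ensembl identifier, a symbol, a description, 1 value per library and their own mean. The deposited values were taken as RPKM that the authors rounded to 1 decimal, because the file names no unit and values of short genes step by more than those of long genes; FPKM would look alike. Per the submitters' processing notes the genome build was Oar_v3.1; for the aligner and the counting program, the name was not given in the sources used here. Libraries of 5 ng RNA were made with SMART-Seq v4, which primes on poly(A) tails, and sequenced as paired 50-base reads, per the labels' protocols.

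Columns were assigned by sample title and libraries numbered in accession order. Members, lists and pairs were chosen with earlier results of these data known, and each member may be named. Detected members, leading members and 7 chosen subunits were given in full. Of other lists the detected rows were named, with some others. Some of these lie below the 3 highest of their list, such as GATA2, CDX2, TEAD4, GRP, STC1 and TCIRG1, so rank did not fix the choice. Pairs were compared by log2(value + 1) within each library with an exact two-sided sign-flip permutation test and Benjamini-Hochberg adjustment over 18 pairs. U6 steps were fitted to values of 1 to 4 steps, of which 95.4%, 94.8% and 94.2% lay within 0.1 of a whole multiple, a wide tolerance. Depth per gene is otherwise unknown, since gene lengths were not used, and the rank of ties was the highest. Some sodium pump rows and the pairs that hold them are not reported here one by one. The routines were tested on simulated data. Symbols matched the RefSeq table for 36 of 39 members and identifiers for 0. Alternatives were other thresholds, pseudocounts, scaling, summed copies and leaving out each library. Python 3.11.15, numpy 2.4.6, pandas 2.3.3 and scipy 1.17.1 were used.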

Additional observations from a re-analysis of the deposited data

How the results depend on the processing

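The main limits are 3 libraries without controls, values rounded to 1 decimal and depths that leave values under 1 to few reads in short genes. The count of detected members, 6 of 39, was 3 at a threshold of 2 (1.89% of all rows), 13 when 2 libraries sufficed (9.02%) and 10 without replicate 3 (7.29%). Across the removals of 1 library it ran from 6 to 10. Above the 99th percentile of 481 olfactory receptor rows (1.44, 1.02 and 1.74 in libraries 1, 2 and 3) lay 4 members, FXYD4, ATP1B3, ATP6V1F and ATP6V1E1, against 2.37% of all rows. The proton pump count of 4 was 2 at a threshold of 2, 10 in at least 2 libraries, 2 above the olfactory receptor percentile and 4 to 7 with 1 library left out, 7 of them without replicate 1 (5.06% of all rows) and 7 without replicate 3. The sodium pump count of 1 was 2 in at least 2 libraries and 1 to 2 with 1 library left out, 2 without replicate 3, and the FXYD count of 1 was 0 at a threshold of 2, because of library 3. The 4 pathway lists together gave 3 detected rows of 62, beside 3.89% of all rows. They gave 8 at a threshold of 0.5 (7.56% of all rows), 0 at 2 (1.89%) and 8 in at least 2 libraries (9.02%). After scaling they gave 6 (4.25%), and with 1 library left out 3 to 7 (4.45% to 7.29%). The marker lists gave 7 of 41 (3.89% of all rows) and 11 in at least 2 libraries (9.02%).

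With a pseudocount of 0.1 the median log2 level was -2.49 for the sodium pump, -3.32 for FXYD and -1.19 for the proton pump; for rows with a mean of 0.5 or more it was 1.66, 3.32 and 1.52, which rest on 2, 1 and 13 rows, so that the FXYD value is FXYD4 alone. The sodium pump level was 0.16 after scaling, and its share of the library was 0.0333% without the 10 highest rows. The median SD of detected members was 0.54 after scaling and 0.56 to 1.32 with 1 library left out. Of the 18 pairs, 15 kept the direction of their mean difference under every alternative run, and ATP6V0A1 minus ATP6V0A4 was 0 without replicate 2. ATP6V1B2 minus ATP6V1B1 ran from -0.076 to 0.96 with 1 library left out, the negative value without replicate 2, and ATP6V1B2 minus ATP6V1A from -0.019 to 1.13, the negative value without replicate 3; in both, 1 library at 0 for ATP6V1B2 opposes the others. No comparison between groups, paired or not, was possible because there is only 1 group. The pairs of genes were compared within each library.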

Other observations

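The mitochondrial ATP synthase, a rotary relative of the vacuolar proton pump that makes ATP, was set beside it after its values were seen. Of 13 rows with a symbol beginning ATP5 and a letter, 11 were detected, against 4 of 25 proton pump rows and 3.89% of all rows. The median log2(value + 1) of the ATP synthase rows was 3.10, 4.10 and 2.10 in libraries 1, 2 and 3, and that of the proton pump rows was 0.38, 0.68 and 0.26. The difference between these complexes was not tested.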
